A study of Mus musculus with 4 samples.

Results

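T cells with transcripts of the gamma or delta T cell receptor constant genes were taken from the T cells of the young and aged meninges and choroid plexus (CP). A T cell here is a cell with 200 to 7000 detected genes, at most 5% mitochondrial UMIs (unique molecular identifiers, each standing for 1 captured transcript) and any UMI of the CD3 genes Cd3d, Cd3e and Cd3g. Members were chosen by their measured receptor transcripts: a T cell was a member when it also held any UMI of Trdc, Tcrg-C1 or Tcrg-C2. The rule found 254 cells among 4157 T cells, or 6.11%. Members with a Trdc UMI were called Trdc-positive (21 cells), and those with a Tcrg-C1 or Tcrg-C2 UMI but no Trdc UMI were called only Tcrg-positive (233 cells).

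The 4 libraries were droplet-based 5′ single cell RNA-seq of CD4 and CD8 T cells sorted from young meninges, young CP, aged meninges and aged CP. All mice were female C57BL/6, 10 weeks old in the young groups and 18 months old in the aged groups. Each library pooled 5 mice, so each combination of age and tissue is 1 library, the mice cannot be separated, and a difference between ages within a tissue, or between tissues within an age, had no replicate. Cells were sorted after staining for markers that included CD3ϵ, CD4, CD8 and CD11b, so T cells that carry neither coreceptor were not what the sort aimed at. The libraries held 718 to 1695 cell barcodes and 2295950 to 4262917 UMIs, and 627 to 1408 T cells. Of all barcodes 8 occurred in more than 1 library, and 0 of those were members. Scrublet, a caller of doublets, was run on cells that passed the filters on genes and mitochondrial UMIs, with or without CD3. It marked 0 to 22 cells per library and 1 member, in the young meninges.

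T cells carry either an alpha-beta or a gamma-delta receptor. Trdc, the constant gene of the delta chain, lies inside the alpha locus and is lost from an allele when its alpha gene segments are joined. The gamma genes lie elsewhere, in clusters that pair V segments with their own constant gene, and they can be rearranged and transcribed in cells that go on to express an alpha-beta receptor. Gamma-delta T cells are known in the meninges as a source of interleukin 17.

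The gamma constant and V genes are shown because the counts of each rest on few bases. The mouse genome GRCm38 (mm10) with the GENCODE vM21 annotation places Tcrg-C1 at chr13:19214103-19217024 on the plus strand, Tcrg-C2 at chr13:19304649-19307551 on the minus strand and Tcrg-C4 at chr13:19344558-19352756 on the plus strand. The first 180 bases of exon 1 of each constant gene are printed 5′ to 3′ at chr13:19307372-19307551 (Tcrg-C2), chr13:19214103-19214282 (Tcrg-C1) and chr13:19344558-19344737 (Tcrg-C4). Capitals in Tcrg-C2 mark the 26 bases that differ from Tcrg-C1 or Tcrg-C4, and capitals in the other 2 mark the bases that differ from Tcrg-C2.
Tcrg-C2: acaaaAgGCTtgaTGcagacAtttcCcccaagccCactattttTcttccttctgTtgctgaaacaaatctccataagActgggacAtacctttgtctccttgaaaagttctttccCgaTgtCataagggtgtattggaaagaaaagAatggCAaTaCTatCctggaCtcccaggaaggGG
Tcrg-C1: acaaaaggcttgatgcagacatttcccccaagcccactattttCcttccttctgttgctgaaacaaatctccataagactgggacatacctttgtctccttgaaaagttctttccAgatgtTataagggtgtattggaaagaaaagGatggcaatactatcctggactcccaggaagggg
Tcrg-C4: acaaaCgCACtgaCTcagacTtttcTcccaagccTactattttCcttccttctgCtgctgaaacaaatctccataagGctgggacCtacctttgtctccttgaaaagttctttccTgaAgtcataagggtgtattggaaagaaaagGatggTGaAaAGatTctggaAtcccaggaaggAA
Over the whole exon of 330 bases, Tcrg-C2 and Tcrg-C1 shared 321 bases (97.3%), with a longest identical run of 71 bases. Tcrg-C2 and Tcrg-C4 shared 269 of 330 (81.5%), with a longest identical run of 29 bases.

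The V genes Trgv2 (chr13:19336573-19337167, minus strand) and Tcrg-V1 (chr13:19339989-19340454, plus strand) are the gamma V genes that the members carried most. Trgv2 has the strand of Tcrg-C2, and the rule used neither V gene. The first 120 bases of exon 2, at chr13:19336760-19336879 and chr13:19340151-19340270, differ at the 3 bases in capitals.
Trgv2: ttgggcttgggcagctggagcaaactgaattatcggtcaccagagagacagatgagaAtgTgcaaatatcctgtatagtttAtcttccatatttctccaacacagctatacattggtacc
Tcrg-V1: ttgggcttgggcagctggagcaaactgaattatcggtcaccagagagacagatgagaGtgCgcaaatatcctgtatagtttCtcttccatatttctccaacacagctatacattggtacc
They shared 117 of 120 bases (97.5%), with an identical run of 57 bases. How reads shared by such near-identical genes were assigned is not given in the sources used here, so the split of counts between Tcrg-C1 and Tcrg-C2, and between Trgv2 and Tcrg-V1, is uncertain. Trdc, at chr14:54142851-54148868, lies upstream of Trac, at chr14:54220521-54224206, on the same chromosome.

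The members carried alpha-beta receptor transcripts at the frequency of other T cells. Of the 233 only Tcrg-positive cells, 168 (72.1%) held a Trbc1 or Trbc2 UMI, against 822 of 1100 (74.7%) in the CD8 reference, the T cells with a Cd8a or Cd8b1 UMI and no UMI of the 3 genes of the rule. A beta V gene was seen in 210 of the 233, Trbc or a beta V gene in 221, Trac in 142, and any alpha or beta receptor gene in 229. Of the 21 Trdc-positive cells, 16 held Trbc, 19 held Trbc or a beta V gene, 12 held Trac and 20 held any alpha or beta gene. Alpha V genes, here and below, include V genes shared with the delta locus, so a UMI of an alpha V gene alone does not show an alpha chain. The label of a gamma-delta T cell was not borne out by these transcripts: 0 of 254 members held Trdc together with a gamma constant gene and neither Trbc nor a beta V gene. Only 2 of 254 members held Trdc and a gamma constant gene at all, so this count had little room to differ from 0. It does not exclude gamma-delta T cells among the members, and the cells are named by the rule alone in what follows.

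Most only Tcrg-positive cells held CD8 transcripts, and most Trdc-positive cells did not. Any Cd8 transcript was found in 177 of 233 (76.0%) only Tcrg-positive cells: both Cd8a and Cd8b1, the 2 chains of the CD8 heterodimer, in 143, Cd8a alone in 13 and Cd8b1 alone in 21. By library, the share was 5 of 16 in the young meninges, 7 of 11 in the young CP, 40 of 63 in the aged meninges and 125 of 143 in the aged CP, so it was lowest in the young meninges and highest in the aged CP. Cd4 was found in 24 of 233, and in 8 of them without Cd8. Trbc and Cd8 together were found in 128 of 233, and 16 of 233 had neither. Among Trdc-positive cells, 8 of 21 held Cd8 (3 of 11, 1 of 5, 1 of 2 and 3 of 3 in the same order), 5 held Cd4, and 5 held both Trbc and Cd8. Most Trdc-positive cells were young and most only Tcrg-positive cells were aged. In the young meninges most cells of both classes lacked Cd8. The class difference therefore cannot be told apart from the make-up by library here.

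**Figure D1:**
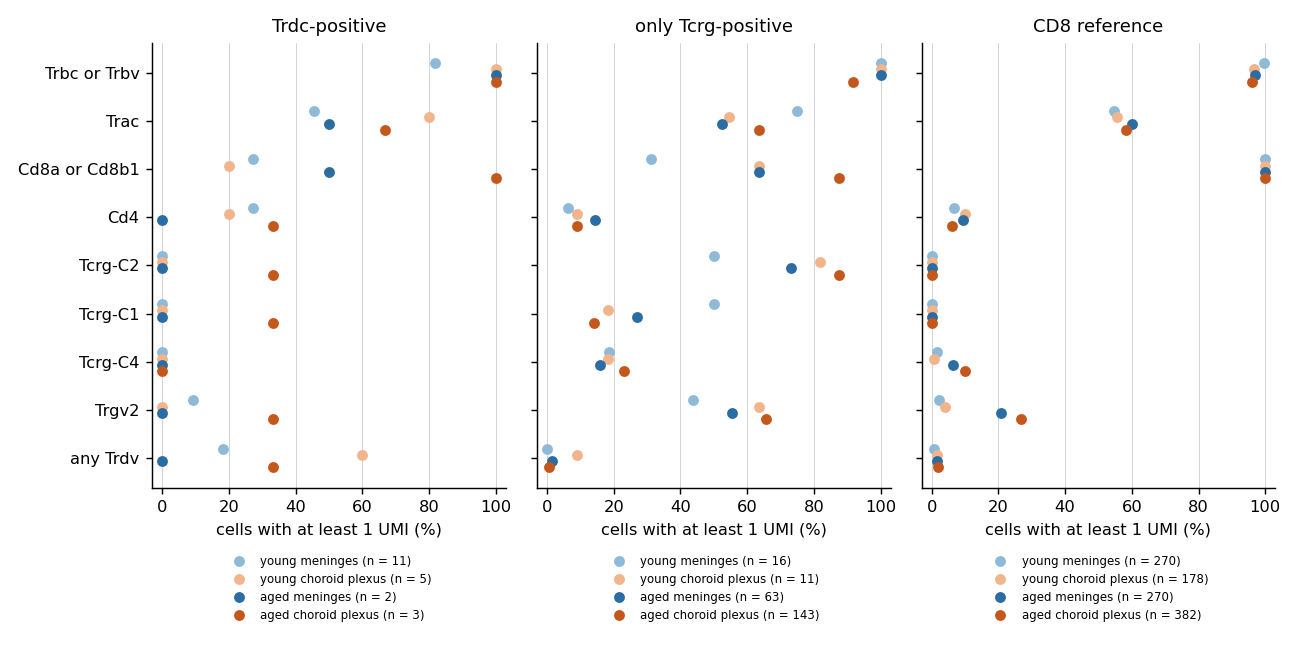
Share of cells, in percent, with at least 1 UMI of each receptor or coreceptor gene in Trdc-positive cells, only Tcrg-positive cells and the CD8 reference. Each point is 1 library, and no intervals are drawn. Trbc or beta V genes had high shares in all 3 panels. Over the cells of all libraries, a value not drawn, Trgv2 was at 61.4% in only Tcrg-positive cells against 15.5% in the CD8 reference.

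Tcrg-C2 and Trgv2 were each found in most of the only Tcrg-positive cells. The rule required Tcrg-C1 or Tcrg-C2, so cells with Tcrg-C4 as their only gamma constant gene could not be members. The split of counts between near-identical genes is uncertain, as said above. Tcrg-C2 was found in 188 of 233 cells (297 UMIs), Tcrg-C1 in 47 (96 UMIs) and both in 2. Trgv2, which the rule did not use, was found in 143 of the 233 (391 UMIs), so the V gene gave more UMIs than either constant gene. Tcrg-C4 was found in 48 (85 UMIs). Tcrg-V1 was found in 24, all of them aged (9 in the meninges, 15 in the CP), and Tcrg-V3, Tcrg-V4 and Tcrg-V7 in 6, 6 and 5. A delta V gene was found in 3 cells, of Trdv1 (6 UMIs in 2 cells) or Trdv5 (1 UMI). Among V genes shared by the alpha and delta loci, Trav6-7-dv9 was found in 12 cells, Trav4-4-dv10 in 6, Trav14d-3-dv8 in 5, Trav21-dv12 in 4, Trav15d-1-dv6d-1 in 2 and Trav13-4-dv7 in 1, and these transcripts cannot be assigned to either chain here.

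The Trdc-positive cells were few, and the Trdc signal was thin. Trdc stood at exactly 1 UMI in 16 of 21 cells and reached 6 UMIs at most. Both cells with a gamma constant UMI (1 with Tcrg-C1, 1 with Tcrg-C2) were from the aged CP, had 13477 and 9064 UMIs in all, and carried Trbc, a beta V gene, Trac, Cd8a and Cd8b1. Trdv2-2 was found in 4 cells (16 UMIs) and Trdv5 in 2 (5 UMIs), whereas Tcrg-V1 was found in 0 and Trgv2 in 2. Trav13-4-dv7 gave 41 UMIs in 3 cells. One cell of the young meninges, with 4 Trdc UMIs of 2365 UMIs, had no Trbc, beta V or Trac UMI but 7 alpha V UMIs and 1 gamma V UMI. Its alpha V UMIs may be of V genes shared with the delta locus, so they cannot be assigned to either chain. The only member of this class with no alpha or beta receptor transcript at all had 1 Trdc UMI and 1 CD3 UMI of 1211 UMIs.

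The values on either side of the threshold were as follows. Among T cells with 0 UMIs of the rule's genes, 5.56% held Trgv2, and among the 1100 of them with Cd8 15.5% did. Cells with exactly 1 UMI (159 cells) held Trgv2 in 56.0%, those with 2 (59 cells) in 59.3% and those with 3 or more (36 cells) in 58.3%. Trbc was found in 71.1%, 69.2%, 83.1% and 69.4% of cells with 0, 1, 2 and 3 or more UMIs, and Cd8 in 28.2%, 73.6%, 74.6% and 66.7%. The median depth rose from 2820 UMIs per cell at 0 to 3059, 3773 and 3983, so cells with more of these UMIs were deeper overall.

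Members were unevenly spread over the libraries. Only Tcrg-positive cells were 1.56% of T cells in the young meninges (16 of 1023, 95% Clopper-Pearson interval 0.897 to 2.53), 1.75% in the young CP (11 of 627, 0.879 to 3.12), 4.47% in the aged meninges (63 of 1408, 3.46 to 5.69) and 13.0% in the aged CP (143 of 1099, 11.1 to 15.1). The intervals of the 2 young libraries overlapped each other, and those of the aged libraries overlapped neither the young ones nor each other. These intervals cover counting error only, and with 1 library per group no test within a tissue or within an age was possible, while a test of age over both tissues (2 libraries against 2) was not run. Depth did not follow the order of the shares, since the median T cell had 3207, 3000, 2312.5 and 2845 UMIs. With every cell thinned to 1000 UMIs, the shares were 0.591%, 0.322%, 1.97% and 5.29% in the same order. Trdc-positive cells were 1.08% (interval 0.538 to 1.92), 0.797% (0.259 to 1.85), 0.142% (0.0172 to 0.512) and 0.273% (0.0563 to 0.796) of T cells, from 11, 5, 2 and 3 cells. The interval of the young meninges lay above that of the aged meninges and overlapped that of the aged CP, and the interval of the young CP overlapped both aged ones.

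The higher shares in the aged libraries were found among cells with Cd8, with or without Cd4. Among T cells with Cd8a or Cd8b1 and no Cd4, only Tcrg-positive cells were 1.92% (interval 0.627 to 4.43) in the young meninges, 3.59% (1.33 to 7.66) in the young CP, 12.5% (8.83 to 16.9) in the aged meninges and 24.2% (20.4 to 28.3) in the aged CP. Thinned to 1000 UMIs per cell, the 4 shares were 0.769%, 0.610%, 4.74% and 9.17%. Cells with Cd4 and no Cd8, which served as the background of free RNA and of rare misassigned UMIs, gave 0.385%, 0 of 166 (which allows a share of up to 1.81%), 1.10% and 1.30%. Cells with neither coreceptor gave 2.06%, 1.45%, 2.59% and 4.19%. Cells with both coreceptors gave 0 of 18 (up to 16.7%), 5.26% (1 of 19), 16.7% (5 of 30, interval 5.64 to 34.7) and 29.4% (10 of 34, 15.1 to 47.5). Their median depth in the 2 aged libraries was 3943.5 and 5030.5 UMIs, against 2811 and 3124.5 in cells with Cd8 alone, and the part of doublets in them was not tested. The aged CD8 shares were therefore above those of the CD4 cells of the same libraries, while the intervals of the young ones were wide.

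**Figure D2:**
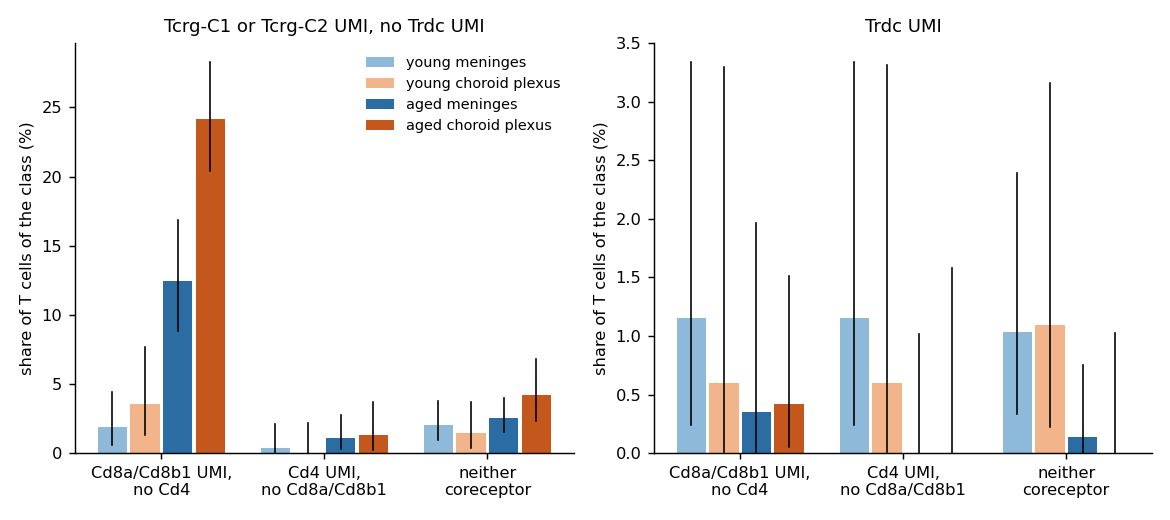
Share of T cells, in percent, that were only Tcrg-positive (left) or Trdc-positive (right) among cells with Cd8, with Cd4 or with neither, in each of the 4 libraries, with 95% Clopper-Pearson intervals as error bars. Cells with both coreceptors are not drawn. The only Tcrg-positive share reached 24.2% of CD8 cells in the aged CP and 1.30% of CD4 cells there.

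Transcripts of other gamma genes, which played no part in the rule, were also more frequent in the aged CD8 cells. Trgv2 was found in 3.08%, 6.59%, 29.2% and 38.4% of CD8 cells in the young meninges, young CP, aged meninges and aged CP, and in 1.54%, 1.83%, 15.7% and 19.8% after thinning. In CD4 cells it was found in 0.769%, 0.602%, 0.829% and 3.03%. Tcrg-C4 was found in 1.54%, 1.20%, 8.54% and 14.5% of CD8 cells. These genes were read in the same libraries as the rule's genes, so they are no independent sample of mice. Among CD8 cells without Ccr7, the receptor that guides naive T cells to lymph nodes, the only Tcrg-positive share was 5.49%, 6.82%, 13.7% and 24.8%. Among CD8 cells with Ccr7 it was 0 of 169 (up to 1.78%), 0 of 79 (up to 3.80%), 0 of 25 (up to 12%) and 17.8% (8 of 45). Among CD8 cells with Gzmk, a granzyme of memory CD8 cells, it was 9.09%, 11.5%, 13.1% and 23.3%, and without Gzmk 0.881%, 2.13%, 11.5% and 25.1%.

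Only Tcrg-positive cells held less of the naive program than the CD8 reference, and more of a small group of genes that includes Cxcr6. UMIs were summed per class and library, and the sums were compared by edgeR with the library as a block. Of 8521 genes tested, 26 (0.305%) were higher and 33 (0.387%) lower at an adjusted p under 0.05, together 0.692%. The count was 32 without the young meninges, 20 without the young CP, 86 without the aged meninges, 71 without the aged CP and 8 by DESeq2. The p-values here and below measure the spread between these 4 libraries only. The reference holds Cd8 in every cell and the members in 76.0% of cells, so Cd8a and Cd8b1 cannot be read in this comparison. The median log2 difference over all genes tested was −0.05.

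Of 16 naive and egress genes tested, 10 were lower in only Tcrg-positive cells and none was higher, with a list median of −1.02 on the log2 scale. Ccr7 was at 0, 37.1, 4.85 and 19.5 CPM (the class's UMIs scaled to the same total in every sum) in the members of the young meninges, young CP, aged meninges and aged CP, and at 462, 265, 59.5 and 56.7 CPM in the reference, a log2 difference of −2.79 (SE 0.34, adjusted p = 2.37e-07 by edgeR). The members were lower in all 4 libraries, with the widest gap in the young meninges. Lef1, a transcription factor of naive T cells, was at 102, 55.7, 72.8 and 27.6 CPM against 389, 349, 94.7 and 76.8 CPM (log2 −1.59, SE 0.27, adjusted p = 0.000292). Dapl1, another gene of the list, had 7 UMIs in 2 members of the aged CP and 0 UMIs in the other 3 libraries, against 159, 130, 14.3 and 20.8 CPM (log2 −2.40, adjusted p = 0.0142). Igfbp4 differed by −1.35 (not called without the young meninges), Klf3 by −1.13 and Klf2, which drives exit from tissue, by −1.30 (not called without the young CP). S1pr1, the receptor for that exit, Il7r, Tcf7 and Foxp1 were the other 4, and these 4 and Dapl1 were not called without the young meninges or without the young CP, nor was Foxp1 without the aged CP.

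The count for this list depended on which cells were compared. By edgeR it was 0 of 15 when cells with a Ccr7 UMI were left out of both classes, with 6 at an unadjusted p under 0.05, and 0 of 16 when members with Trbc were left out, again with 6. It was 7 of 16 when only members with Cd8 were kept, 6 with RLE size factors in place of TMM (2 ways of scaling library totals), and 3 by DESeq2, namely Ccr7, Klf3 and S1pr1. In the reference, Ccr7 was found in 66.3% and 52.2% of cells in the young meninges and young CP and in 10.4% and 10.5% in the aged libraries. The part of such naive-like cells in the other differences was not tested further.

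Of 10 type 17 genes tested, 5 were higher and none lower in only Tcrg-positive cells, with a list median of 0.48. Cxcr6, a chemokine receptor of tissue T cells, was at 965, 705, 626 and 504 CPM against 123, 248, 427 and 463 CPM (log2 0.78, SE 0.19, adjusted p = 0.0366), with the members higher in all 4 libraries and nearly level with the reference in the aged CP, and the call was lost without either young library. Tmem176b, a membrane protein of type 17 lymphocytes, was at 254, 0, 238 and 69.7 CPM against 17.9, 6.63, 37.5 and 23.0 CPM (log2 1.97, SE 0.37, adjusted p = 0.00184). Tmem176a differed by 2.15 and Ltb4r1, a leukotriene B4 receptor, by 2.02, which was not called without the young CP or without the aged meninges. Il17a, the cytokine of this program, was read from 49 UMIs in 3 cells of the aged meninges and was at 0 in the members of the other 3 libraries, so its difference of 7.05 rests on those 3 cells. By DESeq2, 0 of the 10 passed and 4 had an unadjusted p under 0.05. When only members with Cd8 were kept, 1 of the list passed, and the difference of Ltb4r1 turned to −1.04. The members included cells without Cd8 and the reference did not. Only Tcrg-positive cells were not compared with T cells without Cd8 for this list. Its differences therefore cannot be told apart from the coreceptor mix here.

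No gene of the main effector lists passed. Of 12 cytotoxic granule genes and 15 type 1 genes, edgeR called 0 and 0, with 2 and 5 at an unadjusted p under 0.05, and DESeq2 called 0 and 0. The list medians were −0.05 and 0.21. Nkg7, a granule protein, was found in 192 of 233 members, and Ccl5, a chemokine of effector cells, in 193. Of 11 natural killer receptor genes, Klrb1c alone passed (log2 3.04, adjusted p = 0.00621), at 169, 92.8, 0 and 11.3 CPM against 6.27, 10.6, 1.10 and 2.15 CPM, and it was found in 10 of 233 members and not called without the young meninges. Of 15 tissue residence genes only Cxcr6 passed, and 0 passed by DESeq2.

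Some genes outside the lists are given here after their values were seen. S100a4, a calcium-binding protein of memory T cells, was at 593, 965, 519 and 681 CPM against 61.8, 240, 271 and 379 CPM (log2 1.22, SE 0.18, adjusted p = 1.98e-05), and the members were higher in every library. Cd40lg, the ligand of CD40, was at 271, 74.2, 233 and 38.9 CPM against 27.8, 22.5, 60.6 and 33.7 CPM (log2 1.46, adjusted p = 0.00193), a call lost without the aged meninges. The members included cells without Cd8 and the reference did not, so this difference cannot be told apart from the coreceptor mix in this comparison. Tmem108 had 0 UMIs in the 233 members, and 111, 72, 12 and 12 UMIs in the reference (99.4, 95.4, 13.2 and 8.61 CPM, adjusted p = 0.000161), so it was read mostly in the young reference. The 3 called globin genes rested mostly on 1 cell of the aged meninges, which held 173 of the 181 Hbb-bs UMIs in the members of that library, among 2727 UMIs.

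**Figure D3:**
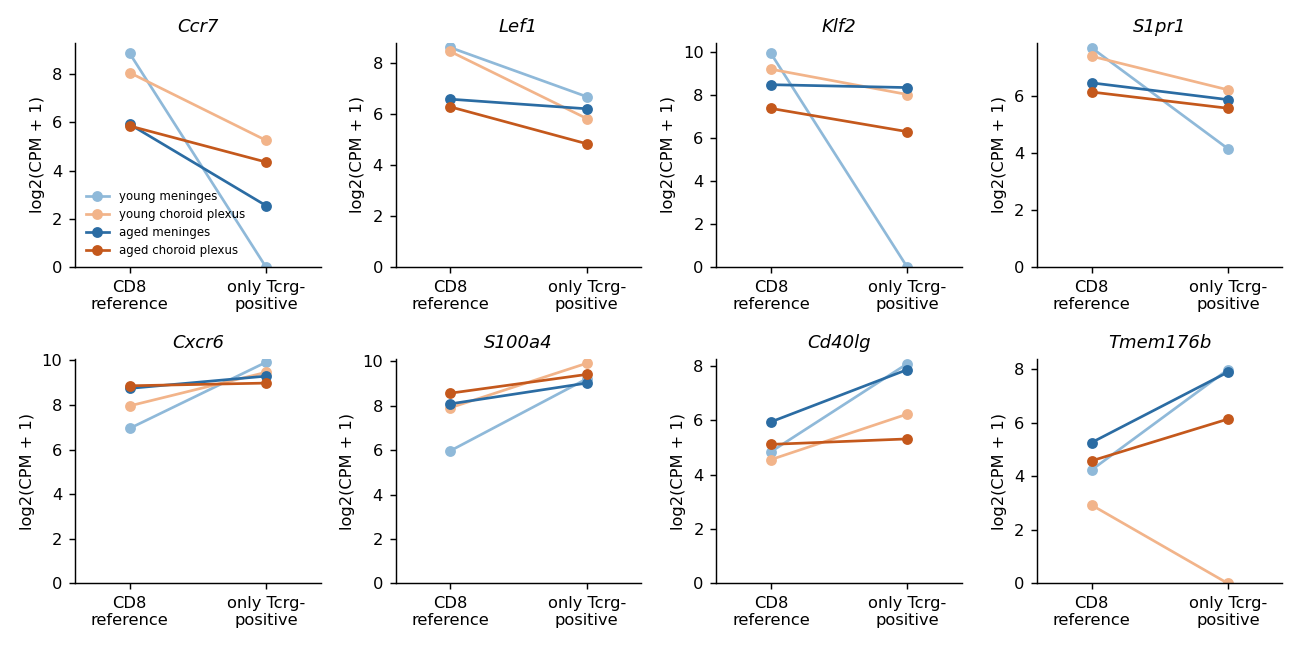
Level of 8 genes as log2(CPM + 1) in the summed UMIs of only Tcrg-positive cells and of the CD8 reference, 1 point per class in each of the 4 libraries. Ccr7 and Lef1 lie below the reference in all 4 libraries and Cxcr6 and S100a4 above it.

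Members with Tcrg-C1 and members with Tcrg-C2 differed in coreceptor and in program. Cells of like Cd8 status were not compared between the 2 kinds, nor either kind with T cells without Cd8. A difference in program therefore cannot be told apart here from the difference in coreceptor. The split was made after the values of these cells had been seen. Tcrg-C1 alone was found in 45 cells (8, 2, 17 and 18 by library) and Tcrg-C2 alone in 186 (8, 9, 46 and 123). Any Cd8 was found in 12 of 45 against 164 of 186, Trgv2 in 9 of 45 against 133 of 186, Tcrg-C4 in 3 of 45 against 44 of 186, and Trbc in 28 of 45 against 139 of 186. Cd4 without Cd8 was found in 8 of 45 against 0 of 186. Trbc or a beta V gene was found in 43 of 45 and 177 of 186, so both kinds carried beta transcripts. Within libraries, the Cd8 split held in the aged meninges (4 of 17 against 36 of 46), the aged CP (4 of 18 against 120 of 123) and the young CP (0 of 2 against 7 of 9), and ran the other way in the young meninges (4 of 8 against 1 of 8).

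The summed UMIs of these cells were fitted by edgeR in the same way, without the 2 Tcrg-C1 cells of the young CP, which were too few for a sum. Of 8060 genes tested 25 (0.31%) were higher and 34 (0.422%) lower in Tcrg-C1 cells, together 0.732%. DESeq2 called 10, all among those 59, with Tmem176b, Nkg7, Klrd1 and Cd40lg among them. The median over all genes was −0.16. Cd8a differed by −1.71 (adjusted p = 0.000449) and Cd8b1 by −1.62 (adjusted p = 0.00139), at 911, 208 and 90.9 CPM for Cd8b1 in the young meninges, aged meninges and aged CP of Tcrg-C1 cells against 200, 953 and 957 CPM in Tcrg-C2 cells. The calls rested on the aged CP: without that library 4 genes passed, without the aged meninges 33 and without the young meninges 108. Of the genes named here, Tmem176b, Il17a and Cd40lg were still called without the aged CP, while Cd8b1, Gzmk, Ccl5, Ccl3, Klrc1, Runx3, Tox and Cd40lg were not called without the aged meninges, and Il17a and Il17f were then too low to be tested.

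Of 12 type 17 genes tested 5 were higher in Tcrg-C1 cells, with a list median of 2.81 and 11 of 12 differences above 0. Tmem176b was at 411, 605 and 284 CPM in the young meninges, aged meninges and aged CP against 40.0, 111 and 34.7 CPM (log2 3.01, SE 0.38, adjusted p = 1.27e-08). It was found in 1 of 8, 10 of 17 and 7 of 18 Tcrg-C1 cells against 1 of 8, 5 of 46 and 8 of 123 Tcrg-C2 cells, so the young meninges value came from 1 cell. Tmem176a differed by 3.90 (adjusted p = 2.66e-09), and Ltb4r1 was found in 5 of 17 and 8 of 18 aged Tcrg-C1 cells against 2 of 46 and 2 of 123 (log2 3.75, adjusted p = 5.78e-05). Il17f had 6 UMIs in 2 Tcrg-C1 cells of the aged meninges, 3 UMIs in 1 of the aged CP and 0 in Tcrg-C2 cells, whereas Il17a was read from 2 Tcrg-C1 cells (39 UMIs) and 1 Tcrg-C2 cell (10 UMIs) of the aged meninges. All 3 cells with Il17a lacked Cd8 and carried beta receptor transcripts, with UMIs of Trac or of alpha V genes.

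Some of the cytotoxic and type 1 genes were lower in Tcrg-C1 cells. Of 12 cytotoxic granule genes 6 were lower and none higher, all 12 differences were below 0 and the list median was −1.46. Nkg7 was at 1175, 605 and 261 CPM in the young meninges, aged meninges and aged CP against 1239, 2638 and 2259 CPM (log2 −1.94, SE 0.29, adjusted p = 1.81e-06), that is nearly level in the young meninges and lower in both aged libraries. Gzmk was found in 3 of 8, 2 of 17 and 1 of 18 Tcrg-C1 cells against 0 of 8, 27 of 46 and 64 of 123 (log2 −1.58, adjusted p = 0.0369), which is the opposite order in the young meninges. Gzmb, a granzyme of killer cells, differed by −5.17 from 1 UMI against 92 in the 3 libraries. Without the aged CP, 0 of the 8 that could then be tested passed by edgeR, with 5 at an unadjusted p under 0.05, and DESeq2 on all 3 libraries called 2 of the list.

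Of 15 type 1 genes 4 were lower, with a list median of −1.10. Ccl4, a chemokine of activated CD8 cells, had 0 UMIs in the aged Tcrg-C1 cells and 797 and 341 CPM in the aged Tcrg-C2 cells of the meninges and CP (log2 −5.84, adjusted p = 1.14e-06). Ccl5 differed by −1.52, Xcl1 by −1.94 and Ccl3 by −4.21. Of 11 natural killer receptor genes Klrd1 (−3.20), Klrc1 (−3.94) and Cd7 (−1.79) were lower. Runx3, a regulator of the CD8 lineage, differed by −2.09 and Tox by −3.08. Of 16 naive and egress genes edgeR called 0, with 1 at an unadjusted p under 0.05, and DESeq2 called 0. With so few Tcrg-C1 cells, this does not show that the list was alike in both kinds. After its values were seen, Cd40lg was also read: it was found in 4 of 8, 10 of 17 and 7 of 18 Tcrg-C1 cells against 4 of 8, 9 of 46 and 11 of 123 (log2 2.13, adjusted p = 7.03e-05).

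**Figure D4:**
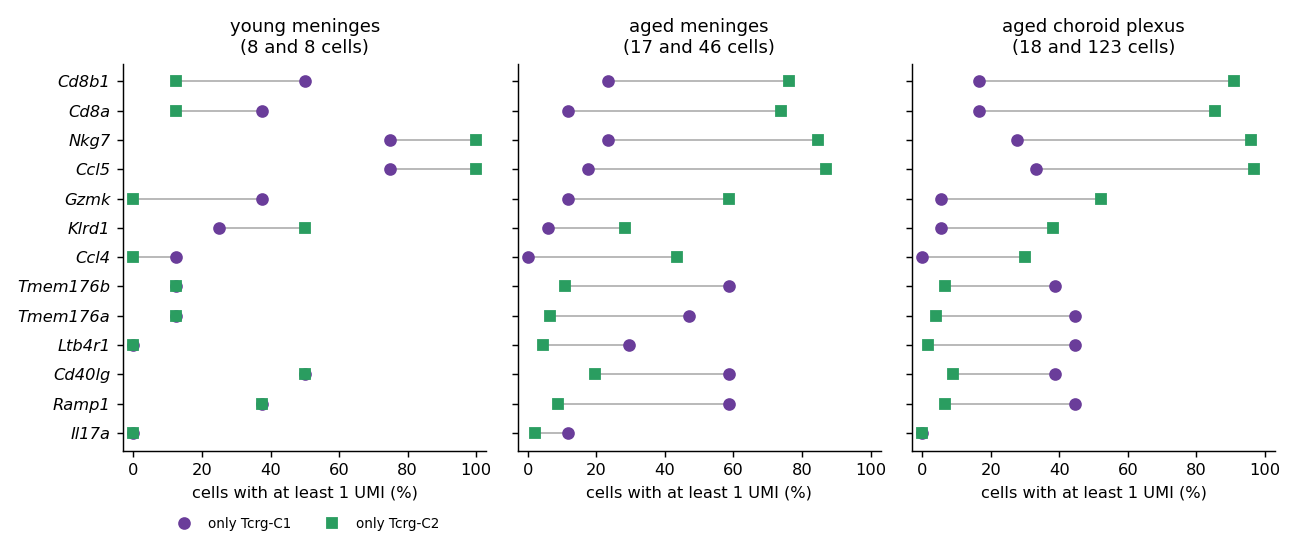
Share of cells, in percent, with at least 1 UMI of each of 13 genes in Tcrg-C1-only and Tcrg-C2-only members of the young meninges (8 and 8 cells), aged meninges (17 and 46) and aged CP (18 and 123). In both aged libraries Cd8b1, Nkg7, Ccl5 and Gzmk sit higher in Tcrg-C2 cells, and Tmem176b, Ltb4r1 and Cd40lg in Tcrg-C1 cells.

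Trdc-positive cells could be summed in the young libraries only, from 11 and 5 cells. The other classes entered the same fit from all 4 libraries, each class with 1 effect shared by its libraries. A difference from Trdc-positive cells therefore sets young cells against a class effect that also draws on aged cells. Against the CD8 reference 1 gene (0.0117%) was higher and 7 (0.0821%) were lower of 8521 by edgeR, together 0.0939%, and DESeq2 called 158, all lower. Against only Tcrg-positive cells 2 (0.0235%) were higher and 6 (0.0704%) lower, together 0.0939%. Against T cells without Cd8 and without the rule's genes 3 (0.0352%) were higher and 1 (0.0117%) lower, together 0.0469%, and 2 of the 3 were Cd8a and Cd8b1, which the choice of the reference fixed. TMM placed the median of all genes at −0.69, −0.62 and −0.68 in these 3 comparisons, and library totals alone at −0.08, −0.15 and −0.18, so a difference is read against that shift. With library totals alone, the calls of Nkg7, S100a6, Cd8a and Cd8b1 against only Tcrg-positive cells and of all 5 genes named against the CD8 reference were lost. Against the CD8 reference 7 genes were called without the young meninges and 5 without the young CP, and of Ly6c2, Nkg7, AY036118, Lars2 and Hsp90ab1 only AY036118 was called in the first case and only Ly6c2 in the second. Against only Tcrg-positive cells 1 gene, S100a6, was called without the young meninges, and 3, Ly6c2 among them, without the young CP.

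With TMM scaling, Ly6c2, S100a6 and Nkg7 were lower in Trdc-positive cells than in only Tcrg-positive cells, and Nkg7 was the only called gene of 12 cytotoxic granule genes. Ly6c2, a surface protein of memory CD8 cells, had 0 UMIs in the young meninges and 1 in the young CP, against 1930 and 1113 CPM in only Tcrg-positive cells and 562 and 435 CPM in the CD8 reference (log2 −6.09 and −6.04). S100a6 was at 277 and 73.6 CPM against 1371 and 4249 CPM in only Tcrg-positive cells (log2 −2.92, SE 0.53, adjusted p = 0.00222), and was found in 1 of 11 and 1 of 5 cells. Nkg7 was at 323 and 589 CPM against 1202 and 1540 CPM (log2 −1.80, adjusted p = 0.00884), and against the CD8 reference it differed by −1.75 (adjusted p = 0.00957). Cd8b1 (−2.25, adjusted p = 0.0251) and Cd8a (−2.21, adjusted p = 0.0316) were lower than in only Tcrg-positive cells. That fit included the aged only Tcrg-positive cells, and the Cd8 share of this class was highest in the aged CP. Tmem108 had 9 and 1 UMIs in the young meninges and young CP (208 and 73.6 CPM) against 0 in only Tcrg-positive cells (adjusted p = 0.0172), and was not called without either young library. The noncoding AY036118 and the housekeeping genes Lars2 and Hsp90ab1 were also lower than in the CD8 reference (−2.01, −1.50 and −1.32).

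Of 16 naive and egress genes, edgeR called 0 against the CD8 reference and 0 against only Tcrg-positive cells, with 1 and 5 at an unadjusted p under 0.05, and DESeq2 called 0 and 0. All 16 differences against only Tcrg-positive cells were above 0, with a list median of 0.84 against −0.62 over all genes. Ccr7 was found in 14 of 21 Trdc-positive cells, 10 of the 11 of the young meninges among them, and in 14 of 233 only Tcrg-positive cells. Of the gamma-delta lineage regulators, 8 of 15 genes could be tested, and against the CD8 reference 0 passed by edgeR or DESeq2, with 2 at an unadjusted p under 0.05 by each. Of the type 17 list, 10 could be tested and 0 passed by either tool, with 1 and 2 at an unadjusted p under 0.05. Il17a and Il17f were found in 0 of 21 cells, which allows up to 14.3% of such cells to hold a UMI and sets no limit on cells that express these genes. Trbv12-2, a beta V gene, was called higher, but 28 of its 29 UMIs came from 1 cell.

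Ages and tissues were compared by size alone, within only Tcrg-positive cells, since each library stands alone. A gene passed when its higher library held at least 20 UMIs, its ratio after adding 50 CPM was at least 1 on the log2 scale, and the 95% Poisson intervals of both libraries did not overlap. Between aged and young meninges 34 genes (3.68%) were higher and 13 (1.41%) lower of 925, together 5.08%. Between aged and young CP 23 (1.05%) were higher and 12 (0.549%) lower of 2187, together 1.6%. The young sums came from 16 and 11 cells, so single cells weigh heavily in them. Both tissues gave 4 genes that were higher with age (Ccl4, Il7r, Gzmk and the beta V gene Trbv1) and 3 that were lower (Ly6c2, Epsti1 and Trbv16).

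Ccl4 was at 33.9 CPM in the young and 592 CPM in the aged meninges (log2 ratio 2.94), and at 0 and 287 CPM in the CP (2.75). In the CD8 reference, the same ratios were 3.12 and 0.29. Gzmk was at 169 and 398 CPM in the meninges and 130 and 311 CPM in the CP (1.03 and 1.01), and at 90.4 and 478, and 64.9 and 303 CPM in the reference (1.91 and 1.62). Both classes thus held more Gzmk in the aged library of each tissue. Il7r, the interleukin 7 receptor, had ratios of 1.55 and 1.10 in the members. Ly6c2 was at 1930 CPM in the young and 335 CPM in the aged meninges, and at 1113 and 349 CPM in the CP (−2.36 and −1.55), whereas the reference gave ratios of 0.34 and 0.17. Whether members and reference differ in these ratios was not tested.

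In the meninges the 5 highest ratios were those of Hbb-bs (3.47, mostly 1 cell), Ccl4, Klf2 (2.91), Gzma (2.60, all 52 UMIs from 1 cell) and the beta V gene Trbv13-1 (2.60), ahead of Il17a (2.53). Klf2 was at 0 CPM in the young and 325 CPM in the aged members, while the CD8 reference gave 980 and 357 CPM. The lowest were Trbv29 (−4.16), Ly6c2, Lyst (−2.10), Trbv16 and Trbv13-2 (−1.67). In the CP the highest were Ccl4, Trbv1 (2.16), Tspan13 (2.02), Plekhj1 (1.99) and Sugt1 (1.79), and the lowest were Fcer1g (−3.62), Igfbp4 (−2.73), Trbv16 (−2.53), Gzmb (−2.37) and Scaf11 (−1.77). Fcer1g, a signalling chain of innate-like cells, fell from 742 to 14.6 CPM, that is from 40 UMIs in 3 of the 11 young cells to 9 UMIs in 3 of the 143 aged cells.

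Hist1h2ap and Junb were among the genes that differed most in size between the 2 aged tissues. Between aged CP and aged meninges 22 genes (0.753%) were higher and 41 (1.4%) lower of 2922, together 2.16%. Hist1h2ap, a histone gene of dividing cells, had 919 UMIs in the CP and 2 in the meninges (1490 and 9.71 CPM, log2 ratio 4.69), and the CD8 reference gave 790 and 356 CPM (1.05). Stmn1 (2.35), Pclaf (2.29), Ube2c (1.93) and Birc5 (1.83), all of dividing cells, were the next highest. Birc5 or Ube2c was found in 11 of 233 members, so few cells carried these UMIs. Junb was at 185 CPM in the CP and 1684 CPM in the meninges (−2.88), and the reference at 164 and 1238 CPM (−2.59). Fos (−2.88) and Zfp36 (−2.77) followed, with −1.77 and −1.10 in the reference. Hbb-bs (−4.21) and Il17a (−2.53) completed the lowest 5, each from a few cells of the meninges.

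**Figure D5:**
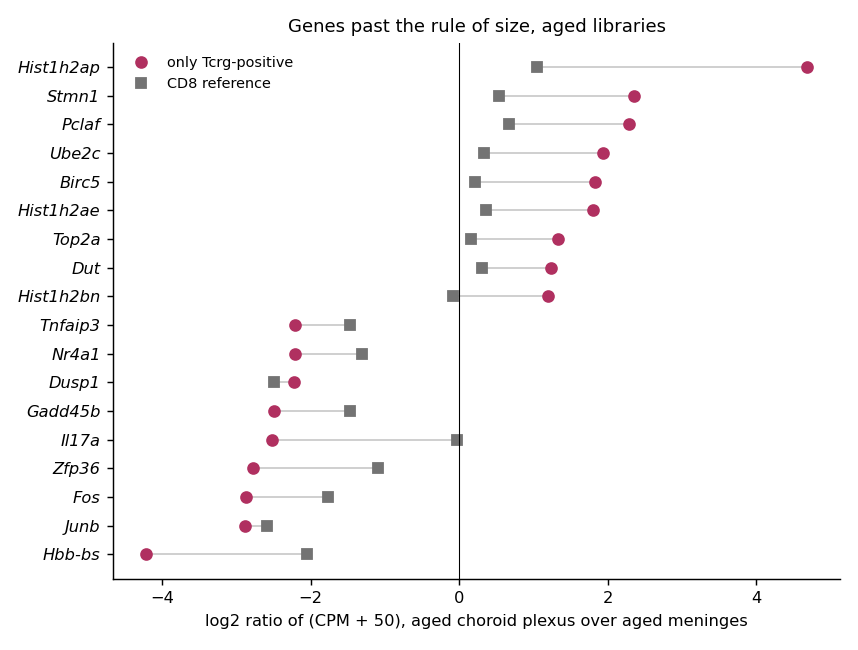
Log2 ratio of aged CP over aged meninges, after adding 50 CPM, for the 9 highest and 9 lowest genes past the rule of size in only Tcrg-positive cells, with the CD8 reference beside them. Junb and Dusp1 lie alike in both classes, and Hist1h2ap lies at 4.69 in the members and 1.05 in the reference.

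The members used many beta V genes. Each cell with a beta V UMI was given the beta V gene with most UMIs. The only Tcrg-positive cells with Cd8 used 19 beta V genes among 111 cells in the aged CP, led by Trbv4 (9.91%), Trbv19 (9.01%) and Trbv1 (8.11%), and 17 among 39 cells in the aged meninges, led by Trbv1 (12.8%). The CD8 reference used 22 among 330 cells of the aged CP, led by Trbv3 (11.2%), and 20 among 248 of the aged meninges, led by Trbv13-2 (10.9%). No single beta V gene thus exceeded 12.8% of these aged cells with Cd8 and a beta V UMI, while the 5 and 7 young cells were too few to describe.

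Markers of other cells were read in the members to different extents. Fibroblast genes were found in 0 members. Of 7 macrophage genes 0 to 3 were found per class and library, in at most 2 cells. Of 5 natural killer genes 1 to 3 were found, in 20.6% to 36.4% of the only Tcrg-positive cells per library against 11.1% to 24.4% of the CD8 reference, while Ncr1, a defining one, was found in 0 of 254 members. Innate lymphoid genes were found in 12 of 63 (19.0%) and 14 of 143 (9.79%) only Tcrg-positive cells of the aged meninges and aged CP and in none of the young ones. They were found in 19 of 270 (7.04%) and 15 of 382 (3.93%) aged cells of the CD8 reference. Aged T cells without Cd8 and without the rule's genes held them in 214 of 1073 (19.9%) and 71 of 571 (12.4%), so they were not particular to the members. Of 4 B cell genes 0 to 2 were found, in 22.2% to 36.4% of the only Tcrg-positive cells per library against 17.8% to 51.5% of the CD8 reference. In Trdc-positive cells they were found in 4 of 11, 2 of 5, 0 of 2 and 1 of 3. Choroid plexus epithelial genes were found in 5 of 143 members of the aged CP and in none of the other libraries' members. Globin genes were found in 14 of 63 only Tcrg-positive cells of the aged meninges, where Hbb-bs was found in 9 of 63 of them and in 41 of 270 cells of the CD8 reference.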

How the data were processed

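The deposited files hold raw UMI counts per gene and cell barcode, which the authors made from 10x Genomics Chromium 5′ libraries with Cell Ranger (3.1.0 per the file headers, 5.1.0 and STAR in the submitters' processing notes) on mm10. No column lay outside the samples (0). The rule's filters on genes and mitochondrial UMIs are those of the study. Here cells were read with scanpy 1.11.5 (Python 3.11.15, scipy 1.17.1), and doublets were marked by Scrublet but kept. The study removed doublets with DoubletFinder, which was not run here. The CD8 reference (1100 cells) and the reference without Cd8 (2803 cells) held no UMI of the rule's genes.

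UMIs were summed per class and library over at least 5 cells. The sums were tested with edgeR 4.0.16 (R 4.3.3; TMM scaling, filterByExpr, quasi-likelihood test, library as block, Benjamini-Hochberg adjustment at 0.05), and DESeq2 1.42.0 was the alternative. Gamma and delta locus genes were left out of these tests, which were checked on simulated data. The test across cells that the study used was not taken up, since cells are not replicates. Shares have 95% Clopper-Pearson intervals, sums 95% Poisson intervals, and a count of 0 a limit of 3 counts, for counting error only. Thinning drew 1000 UMIs per cell without replacement and left out shallower cells.

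The members, gene lists and comparisons were chosen with earlier results of these data known. Named genes are the receptor and coreceptor genes, every gamma or delta V gene with 3 or more UMIs in the members, called genes at the extremes of the comparison of Trdc-positive cells with the CD8 reference (up to 12 in each direction), up to 4 called genes of each list, and the 5 highest and 5 lowest by size. Receptor, mitochondrial and ribosomal genes were left out of the extremes. The text marks some genes named outside this rule, but not all. Among those without a mark are S100a6 and, for the naive and egress list, Klf3, Klf2, S1pr1, Il7r, Tcf7 and Foxp1. Some genes the rule or lists would give are not reported here.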

Additional observations from a re-analysis of the deposited data

Results flagged for a closer look

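Gm42418, a transcript that overlaps ribosomal RNA sequence, was lower in the aged than in the young only Tcrg-positive cells of the meninges (log2 ratio −1.20) and higher in those of the CP (1.19). It is shown because the 2 tissues moved in opposite directions, each from 1 library per age, and the difference between them was not tested. It was also the only gene past the rule of size in both tissues with opposite directions.

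Cells left out for more than 5% mitochondrial UMIs also held members. Among 384 such CD3-positive cells, 13 (3.39%, 95% Clopper-Pearson interval 1.81 to 5.72) were only Tcrg-positive. Of the 13, 10 lay in the aged CP (10 of 142, 7.04%), where the share among retained T cells was 13.0%.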

How the results depend on the processing

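For only Tcrg-positive cells against the CD8 reference, 502 values kept their direction and call status under another setting. Of the others, 164 kept the direction and lost the call, and 4 gained a call. The sign changed in 10 values of called genes and in 49 values of genes not called. For Tcrg-C1 against Tcrg-C2 cells 324 kept both, 85 lost the call, 3 gained one and 11, of genes not called, changed sign. Counts of called genes under other settings were as follows. For Trdc-positive cells against the CD8 reference (8 called), there were 5 with RLE factors, 2 with library totals alone, 158 by DESeq2, 14 without a filter on low counts and 3 with classes of at least 10 cells, and leaving out 1 library gave 5 to 15. Against the reference without Cd8 (4 called), DESeq2 gave 77, no filter 14, and leaving out 1 library 2 to 16. Against only Tcrg-positive cells (8 called), the same settings gave 4 with RLE, 5 with totals, 51 by DESeq2, 19 without a filter and 4 with at least 10 cells, and leaving out 1 library 1 to 27. For only Tcrg-positive cells against the CD8 reference (59 called), totals alone gave 34, DESeq2 8, no filter 106, members without Trbc 5, Trdc-positive cells with at least 2 Trdc UMIs 23 (their sums then drop out of the fit), cells without Ccr7 5 and cells thinned to 1000 UMIs 9, and leaving out 1 library 20 to 86. For Tcrg-C1 against Tcrg-C2 cells (59 called), DESeq2 gave 10, at least 10 cells 115, and leaving out 1 library 4 to 108. The cause of these changes was not tested.

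The only Tcrg-positive share, in the order young meninges, young CP, aged meninges and aged CP, was 0.591%, 0.322%, 1.97% and 5.29% with thinned cells, 0.196%, 0.319%, 1.35% and 3.82% without Trbc-positive members, and 0.489%, 0.638%, 1.42% and 5.37% with at least 2 UMIs, and the aged CP was highest each time. The Trdc-positive share of the young meninges was 0.493% thinned, 0.293% without Trbc-positive members and 0.391% with at least 2 UMIs. In the young CP it was 0% without Trbc-positive members and 0.159% with at least 2 UMIs. In the aged meninges it was 0% thinned and 0% with at least 2 UMIs. In the aged CP it was 0.0928% thinned and 0% with at least 2 UMIs. Without Trbc-positive members, 20 genes passed the rule of size between ages in the meninges, 10 in the CP and 36 between the aged tissues. A pseudocount of 100 CPM gave 22 in the CP and 35 between the tissues, and one of 10 CPM gave 118 between the tissues.

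Some log2 differences of called genes from the CD8 reference changed sign. Ccr7 was at 0.45 once cells with Ccr7 were left out, by construction. Without Trbc-positive members Hba-a1 was at −4.83, Hbb-bs at −1.81, Hist1h2bn at −5.86 and Klrb1c at −4.33. With at least 2 gamma constant UMIs Hba-a1 was at −0.43, Hba-a2 at −4.87 and Hbb-bs at −2.40. Il1r2 was at 0.62 by DESeq2, and Ltb4r1 at −1.04 in members with Cd8 only. Classes were paired within each library, which was the block of the fits. No pairing between libraries was possible, because the labels do not link the mice of one library to those of another. Fits without Trbc-positive members or with at least 2 Trdc UMIs were not run for Trdc-positive cells, whose classes fell under 5 cells. Ages and tissues were not compared in Trdc-positive cells for the same reason. A UMI or 2 per cell decides membership, so cells with unread gamma transcripts sit in the references.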

Other observations

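Among lists that the report does not describe, interferon-stimulated genes gave 1 call of 8 in Tcrg-C1 cells against Tcrg-C2 cells: Ifi27l2a differed by −1.28 (adjusted p = 0.00153 by edgeR) and was found in 11 of 17 and 11 of 18 aged Tcrg-C1 cells against 34 of 46 and 88 of 123. DESeq2 called 1 of the 8 as well. All 8 differences of the list were below 0, with a median of −1.41 against −0.16 over all genes. Of 7 inhibitory receptor genes only Tox passed in that comparison, with 6 at an unadjusted p under 0.05, and 0 passed by DESeq2. Between only Tcrg-positive cells and the CD8 reference, edgeR called 0 of 8 interferon-stimulated and 0 of 7 inhibitory receptor genes, with 1 and 0 at an unadjusted p under 0.05, and DESeq2 called 0 and 0.

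Ube2c, a gene of dividing cells chosen after its values were seen, was also called higher in only Tcrg-positive cells than in the CD8 reference. It was at 0, 148, 0 and 141 CPM in the young meninges, young CP, aged meninges and aged CP of the members, against 20.6, 11.9, 15.4 and 32.3 CPM (log2 1.81, adjusted p = 0.00629 by edgeR). The young CP value came from 1 cell and the aged CP value from 10 cells of 143.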
